A study of Homo sapiens with 8 samples.

Results

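The promoters of pre-mRNA splicing factor genes were examined for peaks of the fusion protein PML::RARA as mapped by Cut&Run. The members were the peaks whose gene label starts with SRSF, HNRNP, SF3A, SF3B, SNRP, U2AF or PRPF, or is LSM followed by a digit. There were 59 such peaks for 55 genes, of 7169 peaks with a gene label and 15412 peaks in all. The comparison set was the other 7110 gene-labelled peaks. Per the study's methods, labels mark the features that a peak apex meets, but some peaks at start sites have no label and some labelled ones lie far from a start site of their gene. The rule uses the names of genes and no measured value. It also takes in some genes with other roles, such as LSM10 and LSM11, whose proteins serve in histone mRNA processing.

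U937-PR9 is a monocytic cell line that carries a PML::RARA fusion transgene behind a zinc-inducible promoter, so that the fusion is made in cells that do not carry the t(15;17) translocation of acute promyelocytic leukaemia. Cells received 100 µM ZnSO4 (induced) or water (uninduced) for 5 h, and an anti-PML::RARA or an anti-RARA antibody was applied to isolated nuclei of 2 replicates of each, which made 8 libraries. In Cut&Run the antibody brings a nuclease to the bound protein, and the released DNA is sequenced. All values below come from the list of reproducible peaks of the induced cells with the anti-PML::RARA antibody, and the other lists were not analysed here. Each peak has a height (the largest signal in it), a width in bp and a total signal summed over its bases, with 1 value of each per peak and none per replicate. There is therefore no spread between replicates and no test in what follows. How deeply the libraries were sequenced is unknown. Intervals printed beside shares reflect how many peaks or genes were counted and no other error.

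Splicing removes introns in a series of steps. U1 snRNP binds the 5′ splice site, the U2AF dimer reads the end of the intron, and U2 snRNP, with its SF3A and SF3B complexes, settles on the branch point before the tri-snRNP of U4, U6 and U5 joins and the spliceosome becomes active. Sm proteins (from some of the SNRP genes) and some LSM proteins form the rings that hold the small nuclear RNAs. Several PRPF proteins serve in the tri-snRNP and the activation steps. SR proteins and hnRNPs bind exons and introns and tune which splice sites are used. SRSF2, SF3B1, U2AF1, ZRSR2 and PRPF8 are recurrently mutated in myeloid neoplasms.

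The sequences below show what lies under these peaks. The first set holds 6 of the 14 member peaks with the ETS-type core CGGAAGT within 200 bp of the peak centre, chosen because they hold the most motif classes, with the core or its reverse complement ACTTCCG in capitals. All are read in hg19 on the strand of the gene, 5′ to 3′, with protein-coding exons left out except around the core of PRPF19, which lies in an exon. The stretches are chr1:38455748-38455808 (minus strand) for SF3A3, chr1:149899696-149899765 (minus) for SF3B4, chr1:203830666-203830726 (plus) for SNRPE, chr2:24299303-24299395 (minus) for SF3B6, chr11:60673913-60673941 (minus) for PRPF19 and chr15:101835516-101835612 (minus) for SNRPA1.
SF3A3: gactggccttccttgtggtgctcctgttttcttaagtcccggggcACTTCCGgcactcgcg
SF3B4: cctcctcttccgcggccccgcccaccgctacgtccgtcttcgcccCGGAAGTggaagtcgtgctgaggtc
SNRPE: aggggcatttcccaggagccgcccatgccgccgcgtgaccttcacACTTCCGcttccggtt
SF3B6: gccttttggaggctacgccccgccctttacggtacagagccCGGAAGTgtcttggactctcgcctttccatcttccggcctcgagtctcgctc
PRPF19: cagcgggggacCGGAAGTggctcgcggag
SNRPA1: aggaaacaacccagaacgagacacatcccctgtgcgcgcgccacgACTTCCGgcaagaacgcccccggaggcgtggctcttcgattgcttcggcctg
The capitals lie close to the start of transcription in most of these. The middle of the core was 13 bp upstream of the nearest start site of SF3A3 and of SNRPE, and 22 bp upstream for SF3B4. It was 77 bp upstream for SNRPA1, 108 bp upstream for SF3B6 and 86 bp downstream for PRPF19. The window of SNRPE holds 2 such cores, and only the first of them is in capitals and given a distance here.

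The second set shows runs without protein-coding exons between the start site of a splicing gene nearest the apex and that of a protein-coding neighbour. The neighbour is read in the opposite direction, and the longest such run is given. Each CpG is in capitals, because members held more CpG, relative to their C and G content, than the other gene-labelled peaks. The set holds the head-to-head pairs with such a run of at least 30 bp, except HNRNPUL2 with TTC9C, whose run is too long to print. The stretches are chr2:24299244-24299395 for SF3B6 and FAM228B, chr2:38978637-38978675 for SRSF7 and GEMIN6, chr4:83351616-83351742 for HNRNPDL and ENOPH1, chr7:32534896-32535037 for LSM5 and AVL9, chr9:86595547-86595712 for HNRNPK and RMI1, chr12:120907552-120907652 for SRSF9 and DYNLL1 and chr19:36236347-36236500 for U2AF1L4 and PSENEN, all on the minus strand, which is that of the splicing gene.
SF3B6 and FAM228B: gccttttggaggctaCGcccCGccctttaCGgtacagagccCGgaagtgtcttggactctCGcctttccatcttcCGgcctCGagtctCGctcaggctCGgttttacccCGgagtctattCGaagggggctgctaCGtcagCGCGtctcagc
SRSF7 and GEMIN6: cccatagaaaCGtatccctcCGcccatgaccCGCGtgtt
HNRNPDL and ENOPH1: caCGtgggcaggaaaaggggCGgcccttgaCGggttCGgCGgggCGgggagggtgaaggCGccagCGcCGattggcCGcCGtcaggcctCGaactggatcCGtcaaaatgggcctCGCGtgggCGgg
LSM5 and AVL9: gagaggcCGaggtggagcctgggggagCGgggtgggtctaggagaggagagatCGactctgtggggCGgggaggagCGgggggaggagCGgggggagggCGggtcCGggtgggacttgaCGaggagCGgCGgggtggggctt
HNRNPK and RMI1: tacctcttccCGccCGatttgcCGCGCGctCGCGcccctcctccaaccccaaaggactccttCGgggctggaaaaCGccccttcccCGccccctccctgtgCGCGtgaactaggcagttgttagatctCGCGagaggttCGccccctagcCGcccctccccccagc
SRSF9 and DYNLL1: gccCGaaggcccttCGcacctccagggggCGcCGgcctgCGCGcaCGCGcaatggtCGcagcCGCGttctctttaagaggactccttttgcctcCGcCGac
U2AF1L4 and PSENEN: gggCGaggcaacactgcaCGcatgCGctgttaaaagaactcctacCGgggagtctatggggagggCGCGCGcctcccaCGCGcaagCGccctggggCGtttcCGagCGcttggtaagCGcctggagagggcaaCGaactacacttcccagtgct
These hold from 4 CpG in 39 bp, at SRSF7 and GEMIN6, to 16 in 166 bp, at HNRNPK and RMI1. A single PML::RARA peak covered each of the 7 stretches.

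Splicing factor genes, as taken by the symbol rule, had a PML::RARA peak at the promoter more often than protein-coding genes at large. Of the 87 annotated protein-coding genes whose symbols meet the rule, 55 carried a label in the list, which is 63.2% (Wilson 95% interval 52.7 to 72.6), against 30.3% of all 20098 protein-coding genes. Counted by position, with the apex of any peak within 1 kb of an annotated start site, the share was 79.3% (69.6 to 86.5, 69 of 87), against 39.3% of all. Both shares for all genes take in genes that may be silent in these cells, since expression was not analysed here.

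Of 3 other gene groups, those of the proteasome and with ribosomal protein symbols were also covered more often than genes at large. The interval of the helicases took in the share of all genes by both counts. The helicase group itself includes splicing genes, such as DHX8 and DDX23. Labelled peaks were held by 24 of 46 proteasome genes (PSM symbols), 52.2% (38.1 to 65.9), by 46 of 100 genes with ribosomal protein symbols (RPL or RPS, which takes in a few kinases such as RPS6KA1), 46% (36.6 to 55.7), and by 21 of 53 DEAD and DEAH box helicase genes (DDX or DHX), 39.6% (27.6 to 53.1). Within 1 kb of a start site an apex was found for 71.7% (57.5 to 82.7) of the proteasome genes, 75% (65.7 to 82.5) of the ribosomal protein symbols and 49.1% (36.1 to 62.1) of the helicases. The interval of the splicing genes overlapped those of the proteasome and ribosomal groups by either count. It overlapped that of the helicases by labelled peaks but not by apex position. No test of the differences was made.

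All 3 U2AF genes were labelled. So were 10 of 13 LSM genes, 6 of 9 SF3A and SF3B genes, 16 of 25 hnRNP genes, 7 of 12 SNRP genes, 7 of 13 PRPF genes and 6 of 12 SR protein genes. A further 14 genes had no label of their own but an apex within 1 kb of a start site, and 18 had neither.

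**Figure D1:**
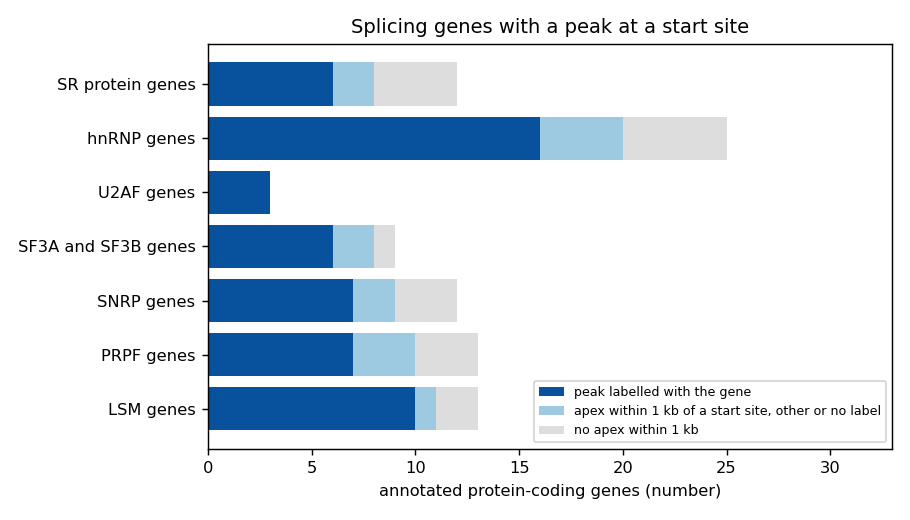
Number of annotated protein-coding splicing genes (x axis) in each class (y axis) that had a labelled peak (dark blue), an apex within 1 kb of a start site in a peak with another label or none (light blue), or no such apex (grey). The U2AF class was complete with 3 of 3 genes, and the hnRNP class, the largest with 25 genes, had 16 labelled.

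Several genes central to splicing were among those that the labels missed. SRSF2, the SR protein mutated in myelodysplastic syndromes, lay under a peak labelled MIR636 at chr17:74732075-74734450, which was 58 high and 2376 bp wide. HNRNPA1, which competes with SR proteins at exons, shared a start region with CBX5, and the peak there was 56 high and 2017 bp wide. The peak at HNRNPH1, which binds runs of G, had no label, a height of 49 and 2156 bp in width. Leaving out the readthrough HNRNPUL2-BSCL2, which shares the peak of HNRNPUL2, the 13 genes of this kind had peaks of median height 32 (18 to 58) and median width 1491 bp, and 5 of the 13, 38.5% (17.7 to 64.5), had heights over 35, where 23.2% of all gene-labelled peaks did.

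The others of these 13 were SNRPA, the U1 protein that binds a stem loop of U1 RNA (height 44, in a peak labelled C19orf54), the Sm protein gene SNRPD3 (38, GUCD1), SF3A2 (34, MIR1227), the U4/U6 protein genes PRPF4 (32, CDC26) and PRPF31 (25, TFPT), LSM3 (27, XPC), SRSF5 (22, LOC100289511), PRPF38A (21, ORC1), HNRNPH2 (19, GLA) and SF3B3 (18, COG4). Each of these 10 peaks thus bore the name of another gene.

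No apex lay within 1 kb of SF3A1, a subunit of U2 snRNP, for which the nearest was 13408 bp away. The same held for SRSF8, SRSF10, SRSF11, SRSF12, HNRNPH3, HNRNPA1L2, HNRNPA1L3, HNRNPCL1, HNRNPCL2, LSM6, LSM14A, PRPF18, PRPF39, SNRPB2, SNRPD1, SNRPN and PRPF6. For PRPF6, a tri-snRNP protein, the apex was 3226 bp away, but that peak, labelled SAMD10, ran from 62609007 to 62612941 on chromosome 20 and so crossed the start of the gene at 62612485. Without values for weaker peaks, an absence from the list is not an absence of binding.

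Member peaks were slightly higher and wider than the other gene-labelled peaks. The median height was 29 (quartiles 21 and 37, range 16 to 60) for the 59 members and 26 (20 and 35, range 13 to 86) for the others, a ratio of 1.12. The median width was 1220 bp (879 and 1598, range 274 to 3157) against 1107 bp (769 and 1538), a ratio of 1.1, and the median total signal was 11139 against 10074, a ratio of 1.11. On the log2 scale the means differed by 0.10 for height, 0.09 for width and 0.22 for total signal, members minus others. These shifts are small beside the spread among the peaks of either set.

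Of the 59 members, 36 had a height over 26, the median of the others, which is 61% (48.3 to 72.4), where 48.5% of all gene-labelled peaks did. For width, 34 of 59 were over 1107 bp, 57.6% (44.9 to 69.4), against 50% of all, and for total signal 34 of 59 were over 10074, again 57.6%, against 50.1% of all. In each case the share in all gene-labelled peaks lay inside the interval of the members. Among the highest 25% of all gene-labelled peaks, with a height over 35, stood 17 members, 28.8% (18.8 to 41.4), against 23.2% of all, because many peaks tie at 35. By width (over 1539 bp) it was 19 members, 32.2% (21.7 to 44.9), against 25% of all, and by total signal (over 16327) 21 members, 35.6% (24.6 to 48.3), against 25% of all.

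The differences in width and total signal rested on the hnRNP genes. Without their 19 peaks, 18 of the remaining 40 were wider than the median of the others, 45%, and 17 of 40 had more total signal, 42.5%, so both shares fell below the comparison of 50%. For height, 22 of 40 remained over the median, 55%, where 48.4% of the others did. This split was chosen after the values were seen. Higher peaks were also wider, with a Spearman correlation of 0.436 between height and width over the 59 members and 0.447 over the others, as a description across peaks of the same libraries.

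**Figure D2:**
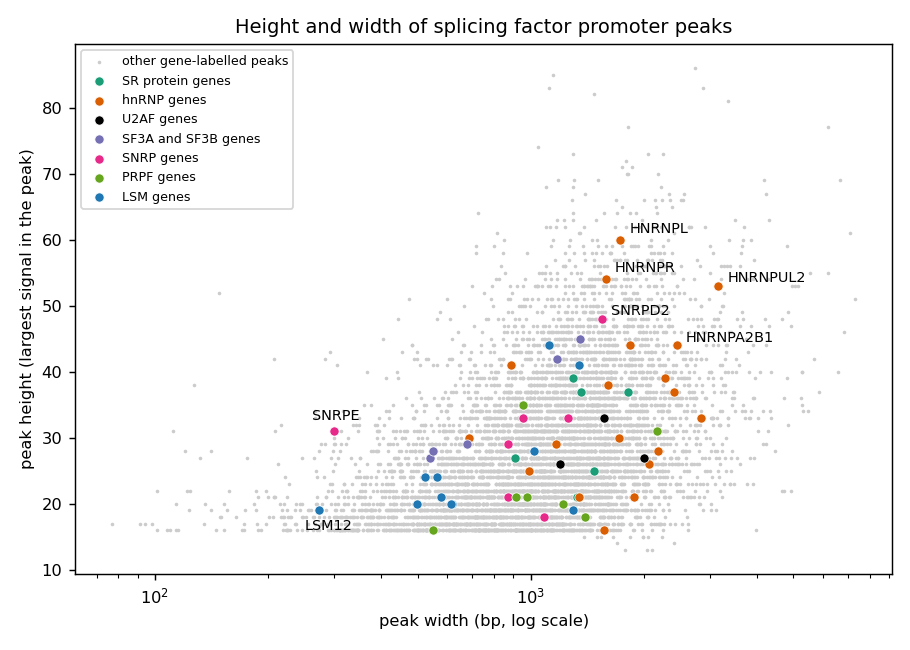
Peak width in bp on a log scale (x axis) against peak height (y axis) for the 59 splicing factor peaks, coloured by class, and the 7110 other gene-labelled peaks in grey. HNRNPL, at 60, is the highest member and HNRNPUL2, at 3157 bp, the widest, while LSM12 and SNRPE, at 274 and 299 bp, are the narrowest.

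The hnRNP genes had the tallest and widest member peaks, with a median height of 33 (16 to 60) and a median width of 1732 bp (686 to 3157) over 19 peaks of 16 genes. HNRNPL, whose protein binds CA-rich RNA and regulates alternative exons, had the highest of all members, with a height of 60, over 98.8% of all gene-labelled peaks. That peak lay at chr19:39339676-39341407, 1732 bp wide, with a total signal of 39527 and the apex 410 bp before the nearest start site. Its mean signal of 22.8 per bp was also the largest among members, whose median was 10.1. The second HNRNPL peak, at chr19:39342281-39343844, was 1564 bp wide but only 16 high, at the low end of the members, with a total signal of 10128 and the apex 268 bp before a start. The same gene thus held both ends of the height range.

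HNRNPR, a close relative of the RNA-binding protein SYNCRIP, followed with a height of 54 at chr1:23670015-23671599, 1585 bp wide, with a total signal of 20340 and its apex 138 bp upstream. HNRNPUL2, a protein related to the scaffold attachment factor HNRNPU, had a height of 53 and the widest member peak, 3157 bp at chr11:62493637-62496793, with a total signal of 46313, the largest of the members, and its apex 248 bp upstream. HNRNPA2B1, which binds RNA in the nucleus and sorts it for transport, had a height of 44, a width of 2449 bp and a total signal of 44172 at chr7:26239687-26242135, and its apex fell 17 bp past a start. The peaks of HNRNPUL2 and HNRNPA2B1 lay at start sites paired with a neighbour on the other strand, TTC9C and CBX3.

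HNRNPF, which binds runs of G, had peaks at 2 of its start sites. The higher, at chr10:43891236-43893076, had a height of 44, a width of 1841 bp and a total signal of 25871, with the apex 18 bp before a start and inside intron 1 of the canonical transcript. The wider, at chr10:43902367-43905203, had a height of 33, a width of 2837 bp and a total signal of 35441, with its apex 6 bp into the 5′ UTR of exon 1. Height and total signal thus ranked this pair in opposite orders. HNRNPUL1 likewise had a peak of height 39 and width 2278 bp (total signal 25967) at chr19:41768966-41771243 and a smaller one of height 30 and width 686 bp (total signal 7537) at chr19:41768006-41768691, with the apexes 541 bp upstream and 5 bp downstream of start sites.

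The other hnRNP peaks ran from a height of 41 to one of 21. HNRNPC, whose protein coats U-rich stretches of nascent RNA, had a height of 41, HNRNPD (AUF1, which binds AU-rich elements) 38 and HNRNPA0 37. HNRNPA0 was among the widest, with 2401 bp at chr5:137088626-137091026, a total signal of 28402 and its apex 392 bp upstream. HNRNPAB had a height of 30, HNRNPM 29, HNRNPDL 28 and HNRNPU 26. HNRNPLL, which directs the splicing of CD45 in lymphocytes, had 25, and HNRNPA3 and the poly-C binding HNRNPK had 21 each. Of the 19 hnRNP peaks, 14 were over the median height of the other gene-labelled peaks, and that of HNRNPU was equal to it. Of all gene-labelled peaks, 48.5% were over that height.

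The 6 SR protein genes had a median height of 32 (21 to 39) and a median width of 1344.5 bp (906 to 1814). SRSF3, the smallest SR protein and an adaptor for mRNA export, had a height of 39, a width of 1298 bp and a mean signal of 16.9 per bp. SRSF1, the best studied SR protein, and SRSF4 both had a height of 37, with widths of 1814 and 1359 bp. SRSF6 had 27, SRSF9 25 and SRSF7 21. The class thus fell into 3 peaks above the upper quartile of the other gene-labelled peaks, which was 35, and 3 within their middle range. Of all gene-labelled peaks, 23.2% were over 35. With SRSF2 under its MIR636 label, the highest peak at an SR gene was 58.

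**Figure D3:**
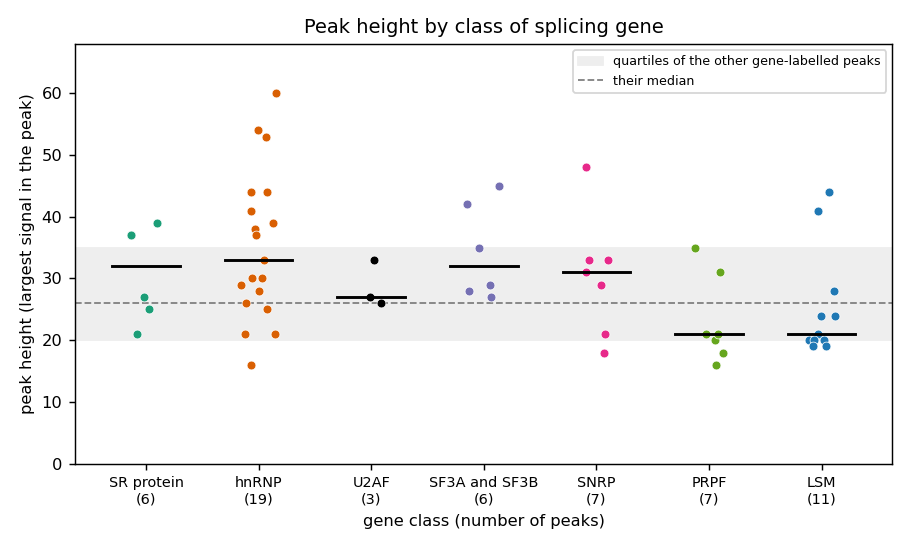
Peak height (y axis) of every splicing factor peak by class (x axis, number of peaks in brackets), with the class median as a black bar, the quartiles of the other gene-labelled peaks (20 to 35) shaded and their median of 26 dashed. Class medians lie between 31 and 33 for the SR, hnRNP, SF3A and SF3B and SNRP genes and at 21 for the PRPF and LSM genes.

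The SF3A and SF3B genes, which encode the part of U2 snRNP that holds the branch point, had narrow peaks of fair height. The median height was 32 (27 to 45) and the median width 816.5 bp (540 to 1353). All 6 heights were above the median of the other gene-labelled peaks, where 48.5% of all gene-labelled peaks were. SF3B2 had the highest, 45, at chr11:65818979-65820331, with a width of 1353 bp, a total signal of 16510 and its apex 121 bp upstream. SF3A3 had 42, SF3B6, whose product touches the branch point adenosine, 35, and SF3B5 29. SF3B1, the subunit most often mutated in myelodysplastic syndromes with ring sideroblasts, had a height of 28 over 549 bp at chr2:198299656-198300204, with a total signal of 5539 and its apex 134 bp upstream. SF3B4 had 27, with a width of 540 bp and a total signal of 5401 at chr1:149899381-149899920, its apex 47 bp upstream. The peak of SF3B1 thus lay near the middle of all gene-labelled peaks by height, above 55.1% of them, and below the lower quartile of the others by width.

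Among the SNRP genes the median height was 31 (18 to 48) and the median width 953 bp (299 to 1547). SNRPD2, a core Sm protein, had a height of 48 at chr19:46194879-46196425, with a width of 1547 bp, a total signal of 28330 and the apex 106 bp past the nearest start, beside QPCTL on the other strand. SNRPC, the U1 protein that helps to read the 5′ splice site, and the Sm gene SNRPB had 33 each, the Sm genes SNRPE, SNRPG and SNRPF 31, 29 and 21. The peak of SNRPE was short, 299 bp at chr1:203830466-203830764, with a total signal of 4960 and its apex 27 bp upstream, and dense, with a mean signal of 16.6 per bp. SNRPA1, the U2 A′ protein, had a height of 18, a width of 1088 bp and a total signal of 8665 at chr15:101834912-101835999, with the apex 71 bp past the start, in intron 1. Peaks of the 5 Sm genes of this class, which serve in the same ring, thus spanned heights from 21 to 48.

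The 3 U2AF genes were close in height. U2AF1, which reads the AG at the end of the intron, had a height of 26 over 1200 bp at chr21:44527015-44528214, with a total signal of 10757 and its apex 68 bp upstream. U2AF2, which binds the polypyrimidine tract, had 27 with a width of 2008 bp, and the paralogue U2AF1L4 had 33 with a width of 1572 bp. Their heights were at or above the median of the other gene-labelled peaks, and all 3 widths were above theirs. Of all gene-labelled peaks, 48.5% were over that median height and 50% over that median width.

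The PRPF genes had lower peaks, with a median height of 21 (16 to 35) and a median width of 975 bp over 7 peaks. PRPF8, the U5 protein at the heart of the spliceosome, had the highest, 35, at chr17:1587454-1588406, with a width of 953 bp, a total signal of 10743 and the apex 4 bp before the start. PRPF19, a ubiquitin ligase needed for activation, and the kinase gene PRPF4B had 21 each, PRPF38B had 20 and PRPF40B 18. The peak of PRPF40B was 1395 bp wide at chr12:50016360-50017754, with a total signal of 10807 and its apex 396 bp upstream. PRPF3, a U4/U6 protein, had a height of 16, a width of 550 bp and a total signal of 3913 at chr1:150293786-150294335, with its apex 28 bp into the 5′ UTR. With the second HNRNPL peak it was the lowest member, at a height that 6.05% of all gene-labelled peaks did not exceed.

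The LSM genes also had low peaks, and the narrowest, with a median height of 21 (19 to 44) and a median width of 614 bp (274 to 1342) over 11 peaks of 10 genes. LSM5, of the ring on U6 RNA, had a height of 44 over 1118 bp, with a total signal of 16779, at chr7:32534587-32535704, with its apex 130 bp upstream, and a second peak of height 20 and width 618 bp (total signal 4381) at chr7:32529613-32530230, with the apex 53 bp before another start. LSM4, of the same ring, had 41 with a width of 1342 bp. The other 8 genes had heights of 28 or less. LSM10 had a height of 28 and LSM11 one of 21, and both encode proteins of the U7 snRNP that processes histone mRNA. LSM2 had 24, LSM7 20 and LSM8, the subunit that keeps the ring in the nucleus, 20. LSM1, which takes the place of LSM8 in the cytoplasmic ring for mRNA decay, had 24.

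The narrowest member peak was that of LSM12, 274 bp at chr17:42143934-42144207, with a height of 19, a total signal of 2497, the smallest of the members, and its apex 14 bp upstream. LSM14B had the same height of 19 but a width of 1300 bp and a total signal of 11199 at chr20:60696475-60697774, with its apex 15 bp upstream. LSM8 was 497 bp wide, with a total signal of 3923 at chr7:117823950-117824446 and its apex 136 bp upstream, and LSM1 524 bp, with a total signal of 5137 at chr8:38033925-38034448 and its apex 1 bp upstream. Peaks of equal height among the LSM genes thus differed widely in width.

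All 59 member peaks had their apex within 1 kb of a start site of the gene they were named for, where 92.2% of the others did (of 7018 with a start site in the annotation). Within 250 bp were 50 of 59, 84.7%, against 76%. The median distance was 75 bp for members and 102 bp for the others, and the apex was upstream of the start in 44 members and at it or downstream in 15, 25.4%, against 24.5% of the others. Set against the canonical transcript alone, 50 apexes lay upstream of that transcript, 6 in its 5′ UTR and 3 in an intron. Some of the 50 were inside the gene as annotated with all its transcripts, such as that of the higher HNRNPL peak. Member peaks were on 17 chromosomes, with 10 on chromosome 19 and 9 on chromosome 1. The shares of all gene-labelled peaks on these chromosomes were not counted, so no excess can be read from these numbers.

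Some member promoters had another start site nearby on the opposite strand, in shares whose intervals took in the background. A start of any annotated gene, non-coding ones included, lay within 1 kb on the other strand in 27 of 59, 45.8% (33.7 to 58.3), against 36.1% of all gene-labelled peaks with an own start site. For protein-coding genes it was 13 of 59, 22% (13.4 to 34.1), against 16.8% of all. Both backgrounds lay inside the intervals. Among the pairs were SF3B6 with FAM228B, SRSF7 with GEMIN6, HNRNPDL with ENOPH1, HNRNPA2B1 with CBX3, LSM5 with AVL9, LSM1 with BAG4, HNRNPK with RMI1, HNRNPUL2 with TTC9C, SRSF9 with DYNLL1, LSM7 with SPPL2B, U2AF1L4 with PSENEN and SNRPD2 with QPCTL. GEMIN6 itself encodes a part of the SMN complex, which loads Sm rings onto small nuclear RNAs. A peak at such a pair cannot be given to either gene.

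Member peaks held more CpG than the other gene-labelled peaks, relative to their C and G content. In the 401 bp around the peak centre, observed CpG over that expected from the C and G content had a median of 0.921 in members (quartiles 0.835 and 1.02) and 0.811 in the others (0.669 and 0.916), and 50 of 59 members, 84.7% (73.5 to 91.8), were above the median of the others, where 50% of the others are by construction. GC content was no higher, with medians of 64.6% and 66.3%. Against the 6474 other peaks with their apex within 1 kb of an own start site, whose median was 0.821, 46 of 59 members were above it, 78% (65.9 to 86.6), a comparison chosen after the data were seen. All 6 SR protein peaks, with a median of 1.05, and all 7 PRPF peaks, with a median of 0.893, were above the median of the others.

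Among the DEAD and DEAH box helicases, 18 of 21 peaks were above it (85.7%, median 0.909). That group holds 6 peaks of splicing genes, and of the other 15 peaks 12 were above it (80%, median 0.896). For genes with ribosomal protein symbols it was 32 of 50 (64%, median 0.858) and for proteasome genes 9 of 25 (36%, median 0.781). The groups thus differed widely, and they were not tested against each other or against the members.

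**Figure D4:**
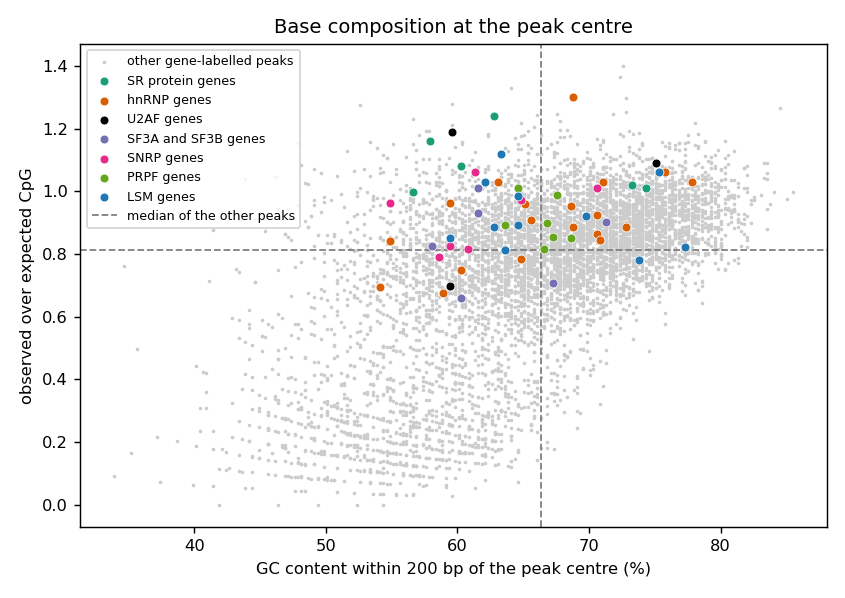
GC content in percent (x axis) and observed over expected CpG (y axis) of the 401 bp around the centre of each peak, for splicing factor peaks coloured by class and the other gene-labelled peaks in grey, with dashed lines at the medians of the others. Most coloured points, 50 of 59, lie above the horizontal line at 0.811, on both sides of the vertical line at 66.3%.

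Of 12 motifs sought on both strands of the same 401 bp, only the ETS-type core CGGAAGT printed above, GGGCGG and CCAAT were in 10 or more members. Among these the ETS core differed most in ratio. Some rarer motifs differed more in ratio, namely TGTGGT (RUNX), 6.78% against 14.7%, and TGANTCA (AP-1), 0% against 5.81%. The ETS core was in 14 of 59 members, 23.7% (14.7 to 36), and in 12.6% of the others. Within 100 bp of the centre it was in 6 members, 10.2% (4.74 to 20.5), an interval that takes in the 7.14% of the others. The PU.1-type letters GAGGAAGT, which share GGAAGT with it, were in 3 members, 5.08%, against 4.37%. Within the members the ETS core was spread unevenly, in 5 of 6 SF3A and SF3B peaks, 2 of 3 U2AF peaks, 3 of 7 SNRP peaks, 2 of 11 LSM peaks, 1 of 7 PRPF peaks, 1 of 19 hnRNP peaks and 0 of 6 SR protein peaks. The carriers were SF3A3, SF3B1, SF3B2, SF3B4, SF3B6, U2AF2, U2AF1L4, SNRPC, SNRPE, SNRPA1, LSM4, LSM5, PRPF19 and HNRNPUL2. The division by class was made after the values were seen and has no test.

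The median height was 32 in the 14 members with the ETS core and 28 in the 45 without, while in the other gene-labelled peaks it was 26 with and without. The core was in 10 of 50 peaks of genes with ribosomal protein symbols, 20% (11.2 to 33), 4 of 21 peaks of DEAD and DEAH box helicases, 19% (7.67 to 40), and 4 of 25 peaks of proteasome genes, 16% (6.4 to 34.7). All 3 intervals take in both the 12.6% of the other gene-labelled peaks and the 23.7% of the members.

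GC box letters GGGCGG (bound by SP and KLF factors) were in 45 members, 76.3% (64 to 85.3), against 74.4% of the others, and CCAAT (NFY) in 22, 37.3% (26.1 to 50), against 35.9%. AAGATGGC (YY1) was in 6 members, 10.2% (4.74 to 20.5), against 5.51%, the E-box CACGTG in 8, 13.6% (7.03 to 24.5), against 10.2%, GCGCATGCG (NRF1) in 3, 5.08% (1.74 to 13.9), against 3.05%, and TGACGTCA (CRE) in 1, 1.69% (0.3 to 9), against 2.39%. TGTGGT (RUNX) was in 4 members, 6.78% (2.67 to 16.2), against 14.7%. The share in the others lay inside the interval of the members for each of these 7 motifs.

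No member held a retinoid direct repeat, the kind of element that RARA binds with its partner RXR, sought as 2 half-sites in the same direction with a spacer of 1, 2 or 5 bases. A half-site was AGGTCA, with either purine allowed as the first base and G or T as the third. It was in 0.788% of the others, and 0 of 59 allows a share of up to 5.08% by 3 counts, or 6.11% by the Wilson limit drawn in the plot of motifs. The letters TGANTCA (AP-1) were also in 0 of 59, against 5.81% of the others, which lies between these limits, and against 7.47% within 200 bp of the apex, above both. No member had TCTCGCGA (ZBTB33 type) within 200 bp of the peak centre, against 1.9% of the others. Within 200 bp of the apex it was in 1 of 59 members, 1.69% (0.3 to 9), against 2.28%. A match is a description of letters in this window, and the lack of one says nothing about the factor.

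**Figure D5:**
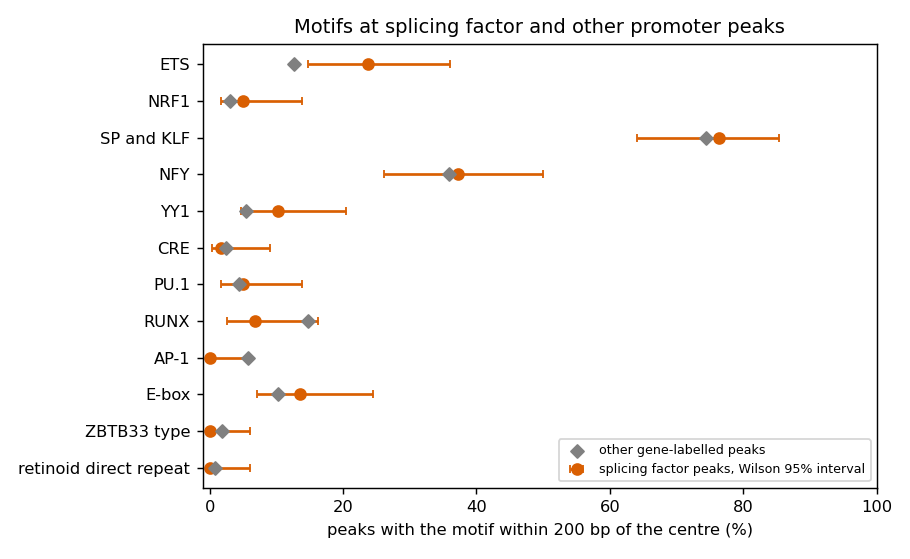
Percent of peaks with each motif within 200 bp of the peak centre (x axis) for the 59 splicing factor peaks (orange, with Wilson 95% intervals) and the 7110 other gene-labelled peaks (grey diamonds), by motif (y axis). The ETS diamond, at 12.6%, lies left of its orange interval of 14.7 to 36%, and the AP-1 diamond, at 5.81%, lies just inside the upper Wilson limit of 6.11% for 0 of 59.

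Splicing genes outside the symbol rule were also covered. Of 83 such genes on a list of their roles, 56 had a labelled peak, 67.5% (56.8 to 76.6), against 30.3% of all protein-coding genes, and 70 had an apex within 1 kb of a start site, 84.3% (75 to 90.6), against 39.3% of all. No test was made against the members. Their 60 peaks had a median height of 27 and a median width of 1087.5 bp. All 6 listed genes of the exon junction complex were labelled, from MAGOH at 18 to EIF4A3, the helicase that anchors the complex, at 41. Among tri-snRNP and U5 proteins without PRPF symbols 7 of 8 were labelled, among the splicing ATPases of the DEAH and DEAD box kind 5 of 7, among 3′ splice site and U2 auxiliary proteins 7 of 9, among splicing regulators 13 of 20, among SR protein kinases 4 of 6, among SR-related proteins 3 of 5, among SNRNP genes 4 of 7, among proteins of the PRPF19 complex and its partners 6 of 13 and among second-step factors 1 of 2. The highest were SRRM1, a coactivator of splicing, at 64, SF1, which marks the branch point before U2 snRNP, at 62, and DDX41, mutated in familial myeloid neoplasms, and PTBP1, which represses exons, at 54 each. The peak of PTBP1 was 3211 bp wide. ZRSR2, which reads the 3′ splice site of minor introns, had no peak, and the nearest apex was 58820 bp from its start.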

How the data were processed

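Per the submitters' processing notes and the study's methods, reads were trimmed (Trimmomatic) and mapped to hg19 (Bowtie2), and duplicates (SAMtools) and blacklisted reads (Bedtools) were taken out. SEACR called peaks over the control of each pair, and those reproducible in the 2 replicates at an IDR under 0.05 were kept. Versions were not given in the sources used here. The deposited table holds a total signal per peak and, as the SEACR score, its largest signal (the height). The column of totals is named as a summit, but every value in it is below height times width, so it was read as a sum. The normalization of the signal, and whether it is that of 1 replicate or of both, are not stated. The deposited width, coordinates (1-based, hg19) and gene labels were used as they stand.

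The members and lists were chosen with earlier results of these data known. Shares are given with Wilson 95% intervals, beside the same share over all gene-labelled peaks or all protein-coding genes. Peaks at neighbouring start sites are not independent. Start sites, exons and gene types came from GENCODE release 44 mapped to GRCh37, in which 6381 of 6546 labels were found and a further 84 through an older name, and sequences from the GRCh37 genome. The apex was the middle of the deposited interval of largest signal. Motifs were sought in 401 bp about the centre of a peak, on either strand. Named with full values were the 6 highest and 6 lowest peaks (3 tied at the sixth height), the 5 widest and 5 narrowest, genes with 2 peaks and the genes mutated in myeloid neoplasms. Other members are given by class, and 1 member is not reported here by name. The computation of shares was checked on simulated data. Python 3.11.15 was used with numpy 2.4.6, pandas 2.3.3, pysam 0.24.0 and matplotlib 3.10.9.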

Additional observations from a re-analysis of the deposited data

How the results depend on the processing

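No paired analysis was possible because only 1 value is given for each peak, and by that fact neither of the 2 replicates could be left out. The share of members over the median height of the comparison ran from 50% to 64.4% over 10 alternatives and was above the comparison in all of them. It was 55.9% within 10 classes of width. For width the share ran from 45% to 78% over 10 alternatives. With all other peaks, unlabelled ones included, as comparison, it was 78%, and 74.6% for total signal. With the hnRNP genes left out, an alternative chosen after seeing the data, it was 45%, and 42.5% for total signal, both under the comparison of 50%. Within 10 classes of height the share for width was 50.8%, and with the 83 other splicing genes added that for total signal was 48.7%. Among the highest 10% of gene-labelled peaks stood 8.47% of members, against 9.29% of all (ties left out), and among the widest 10% stood 13.6%, against 10% of all. Coverage by apex position was 79.3%, against 39.3% of all protein-coding genes. Opposite-strand starts were near 22% of members when restricted to protein-coding genes (16.8% of all) and 20.3% within 500 bp (15.1%). Any start within 500 bp was near 35.6% of members (31.2% of all). Each share of all gene-labelled peaks with an own start site lay inside the interval of the members. The ETS core was in 10.2% of members within 100 bp of the centre (interval 4.74 to 20.5, others 7.14%, so it did not stand apart there) and in 28.8% within 200 bp of the apex (others 14.7%). Observed over expected CpG was above the median of the others in 83.1% and 71.2% of members in these windows. For CCAAT, AAGATGGC and GAGGAAGT, the direction of the difference turned in 1 of the 2 windows. The unknown depth limits what can be said of genes without a peak.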

Other observations

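Inside member genes but outside their labelled peaks, 3 peaks without a label were found. How often the other labelled genes hold such peaks was not counted. In HNRNPM a peak of height 69 and width 1428 bp lay with its apex 42850 bp from the start of the gene, higher than any of the 59 labelled member peaks and than the peak of height 29 at its own promoter. In LSM4 the peak had a height of 32, its apex 4670 bp from the start. In PRPF8 it had a height of 17, its apex 1193 bp from the start. The PRPF8 peak ended at 1587156 on chromosome 17, close to the labelled promoter peak of the gene, which began at 1587454. Within 10 kb of LSM10, whose own peak had a height of 28, lay an unlabelled peak of height 55, 3260 bp upstream of the gene, and one labelled STK40 of height 66. Within 10 kb of HNRNPF lay an unlabelled peak of height 53, 9029 bp upstream of the gene. These peaks were picked after their values were seen, and which gene they serve was not tested.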
